A study of Mus musculus with 12 samples.

Results

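Oligodendrocytes, the myelinating glia of the brain, were a large class of cells in the 3-month (3m) striatal libraries of a single-cell RNA-Seq series on astrocyte maturation. They were taken as the cells of the 3m libraries with at least 1 UMI (unique molecular identifier, a count of a captured mRNA molecule) from at least 4 of Mog, Mag, Mobp, Opalin, Ermn and Cldn11, and from at most 1 of Cldn5, Flt1, Rgs5, Pdgfra, Ntsr2 and Aldh1l1, genes of endothelial cells, mural cells, precursors and astrocytes. This rule gave 851 cells of 1839 in the 3m libraries and of 3117 in the whole series that had more than 500 detected genes and less than 10% mitochondrial UMIs. Of these, 559 came from 3m replicate 1 and 292 from 3m replicate 2.

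The study asked how striatal astrocytes mature. It dissociated the striatum of early postnatal and 3m mice, enriched astrocytes on magnetic beads through the ACSA2 surface antigen, and captured single cells on droplets for 3′ sequencing of polyadenylated RNA. The data used here hold 2 libraries at each age, fewer preparations than the study describes, and the others were not analysed here. The labels gave a wild-type genotype and a strain called mixed, while the methods described male C57BL/6Jax mice and preparations pooled from several animals. The postnatal libraries carried conflicting ages, since their titles and their age tags swapped P3 and P7, and they enter here only as a comparison of shares of cells.

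Oligodendrocytes arise from precursors that proliferate, withdraw from the cell cycle, pass through a short premyelinating stage and then wrap axons. Compact myelin is built from a few abundant proteins, myelin basic protein among them, and from a membrane rich in cholesterol and galactolipids, and it is made and kept under the transcription factors SOX10, OLIG2 and MYRF. Mature oligodendrocytes also store iron, exchange lactate and potassium with axons through their own transporters and channels, and differ among themselves in late genes such as Ptgds, Il33 and Klk6.

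Some properties of the libraries preceded any result. The deposited table held 651 and 832 cell barcodes for the postnatal libraries and 1449 and 1313 for the 3m libraries, with total counts between 7185335 and 11501049 UMIs per library. Both 3m libraries expressed Xist, at 801 and 953 CPM (the UMIs of a gene per 1000000 UMIs of the same cells), and held no UMI of Ddx3y or Eif2s3y, although the methods described male mice. In the oligodendrocytes Xist was found in 83.5% of cells of replicate 1 and 91.8% of replicate 2. Postnatal replicate 2 and 3m replicate 2 shared 95 cell barcodes, of which only the member with more UMIs was kept, and 8 oligodendrocytes of replicate 2 carried such a barcode. The labels describe the cells as astrocytes, but Atp1b2, which encodes the ACSA2 antigen, stood at 23.1 and 11.4 CPM in the oligodendrocytes and at 1244 and 1489 CPM in the astrocytes of the same libraries. The share of oligodendrocytes below is a share of the cells left after this enrichment and not of the tissue.

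Oligodendrocytes made up 49.9% of the filtered cells of 3m replicate 1 (559 of 1120, exact 95% binomial interval 46.9 to 52.9) and 40.6% of those of replicate 2 (292 of 719, 37.0 to 44.3). The mean share was 45.3% ± 6.58 (SD, n = 2). No cell met the rule in the postnatal libraries, 0 of 555 and 0 of 723, and 3 cells of each total, the limit used for a count of 0, come to 0.541% and 0.415% (exact 95% binomial upper limits 0.662% and 0.509%). These shares rest on the marker genes of the rule and are a description without a test. These intervals and limits cover counting error only. The median oligodendrocyte held 9062 UMIs from 2992 genes in replicate 1 and 13324 UMIs from 3648.5 genes in replicate 2, so that the second library, with fewer cells, was the deeper one per cell.

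The 6 genes of the rule were nearly all present in nearly all of its cells. All 6 were detected in 498 of the 559 oligodendrocytes of replicate 1 and in 270 of the 292 of replicate 2. Just inside the limit, 4 and 2 oligodendrocytes carried exactly 4 of the genes. Just outside it, 5 and 6 cells carried exactly 3, and a further 24 and 3 cells met the oligodendrocyte genes but were set aside for 2 or more genes of other cells. The range between the classes was therefore thinly filled in both libraries.

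Opalin, which encodes a transmembrane protein of the oligodendrocyte surface, was the gene most often missing. It was detected in 90.5% and 92.8% of oligodendrocytes, against 99.3% to 100% for the other 5 genes, and it was the absent gene in 52 of the 57 cells of replicate 1 and in all 20 of replicate 2 that carried 5 genes. The oligodendrocytes without Opalin were deeper than those with it, at a median of 12389 against 8802.5 UMIs in replicate 1 and 18394 against 13137 in replicate 2.

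The levels of the rule genes are a description, since they chose the cells. Mog, a surface glycoprotein of the outer myelin face, stood at 1600 and 1700 CPM in the 2 libraries, and Mag, the adhesion protein of the inner face, at 2223 and 2473 CPM. Mobp, a small cytoplasmic protein of compact myelin, stood at 1513 and 2024 CPM, and Opalin at 1030 and 1167 CPM. Ermn, a cytoskeletal protein of late oligodendrocytes, stood at 2831 and 2647 CPM, and Cldn11, the tight junction protein of myelin, at 2621 and 3182 CPM. In the astrocytes, which were defined in part by lacking them, these genes stood at 0.14% to 1.41% of the oligodendrocyte level.

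The DNA before the start sites of 6 genes on which the results turn is printed to show the regions beside the levels. Mog, Mobp and Opalin are genes of the rule that chose the cells, and Il33, Ptgds and Klk6 varied among those cells. The bases come from the 250 before the transcription start, on the coding strand, in the RefSeq annotation of GRCm38.p6, without bases that lie in an annotated exon. This left out the 35 bases nearest the start for Mobp, the 45 nearest for Klk6 and the 93 nearest for Ptgds, so these sequences end that far before it. Capitals mark each match, on either strand, to ACAAAG or ACAATG, motifs of the SOX family, to CTGGCAC or CTGGTAC, motifs of MYRF, and to the E box CACGTG.
Mog, chr17:37023399-37023648, minus strand: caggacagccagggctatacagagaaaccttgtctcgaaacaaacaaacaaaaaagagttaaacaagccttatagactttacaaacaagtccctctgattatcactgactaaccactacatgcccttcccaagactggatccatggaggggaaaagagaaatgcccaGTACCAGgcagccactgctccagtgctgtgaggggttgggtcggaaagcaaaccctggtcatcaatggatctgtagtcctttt
Mobp, chr9:120149492-120149706, plus strand: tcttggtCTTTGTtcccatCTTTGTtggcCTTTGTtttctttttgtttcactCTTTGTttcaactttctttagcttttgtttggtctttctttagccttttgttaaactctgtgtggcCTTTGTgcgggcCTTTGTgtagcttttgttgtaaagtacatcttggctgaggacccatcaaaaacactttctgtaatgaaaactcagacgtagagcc
Opalin, chr19:41077114-41077363, minus strand: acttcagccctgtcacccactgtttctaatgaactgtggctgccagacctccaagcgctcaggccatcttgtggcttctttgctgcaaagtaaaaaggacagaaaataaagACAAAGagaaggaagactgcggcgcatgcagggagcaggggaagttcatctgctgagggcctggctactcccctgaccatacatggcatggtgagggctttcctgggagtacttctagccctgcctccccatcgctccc
Il33, chr19:29924863-29925112, plus strand: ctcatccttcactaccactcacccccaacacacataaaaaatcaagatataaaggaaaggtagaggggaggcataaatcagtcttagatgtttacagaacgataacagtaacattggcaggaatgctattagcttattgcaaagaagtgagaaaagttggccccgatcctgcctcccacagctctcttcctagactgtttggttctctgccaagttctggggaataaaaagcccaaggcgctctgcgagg
Ptgds, chr2:25469843-25469999, minus strand: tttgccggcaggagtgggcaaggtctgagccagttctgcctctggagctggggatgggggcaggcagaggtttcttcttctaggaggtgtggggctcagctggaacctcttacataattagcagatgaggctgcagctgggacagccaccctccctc
Klk6, chr7:43824294-43824498, plus strand: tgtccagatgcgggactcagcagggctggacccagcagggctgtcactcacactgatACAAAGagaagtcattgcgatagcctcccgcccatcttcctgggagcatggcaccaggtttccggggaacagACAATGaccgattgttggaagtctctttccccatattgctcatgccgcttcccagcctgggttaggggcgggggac

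The Mobp promoter held 6 copies of ACAAAG, all on the opposite strand, from 243 to 120 bases before the start. Opalin held 1 copy, 139 bases before the start, and Klk6 held ACAAAG at 193 and ACAATG at 121 bases before its most upstream listed start. In Mog the only match was CTGGTAC on the opposite strand, 83 bases before the start. The windows of Il33 and Ptgds held none of these motifs, which says only that these letters do not occur there, and the start listed for Ptgds lies inside its gene model. Short motifs are common: over the 250 bases before 32851 RefSeq starts, 16.5% held ACAAAG, 10.7% ACAATG, 4.19% CTGGCAC, 1.83% CTGGTAC and 6.02% CACGTG. RefSeq promoters were found for 17 of 21 genes sought, and 10 of them held at least 1 match. These genes had 26 starts, each searched for all the motifs. The shares above are for single motifs and single starts, so they give no background for this count.

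The oligodendrocytes of the 2 libraries were alike in most genes. Among the 5471 genes with at least 20 CPM in both, the log2 ratio of replicate 2 to replicate 1 had an SD of 0.19, and the levels correlated across genes with r = 0.991 and rho = 0.983, genes not being independent replicates. Only 5 genes, 0.0914%, differed at least 2-fold. Gstp1, a glutathione transferase, stood at 332 CPM in replicate 1 and 1226 CPM in replicate 2, and its level was also higher in replicate 2 in astrocytes (16.2 and 54.0 CPM) and in endothelial cells (23.1 and 109 CPM). Ccdc85b (21.4 and 66.0 CPM) was higher in replicate 2 as well. Gria2 (47.5 and 21.1 CPM), a glutamate receptor subunit, and Clu (153 and 51.6 CPM), an abundant astrocyte gene at 9206 and 8173 CPM in the astrocytes, were higher in replicate 1. The counts of the 2 libraries were not copies of each other (chi-square divided by its degrees of freedom, 7.14), a check that bears only on a library deposited under both names. They were treated as replicates because the labels number them so. The paper describes independent preparations at each age. The tests below take the library as a block. Their p-values weigh differences between groups of cells against how far those differences varied between the 2 libraries.

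RNA of other cells was low in the oligodendrocytes. The summed level of 10 astrocyte markers was 390 CPM in replicate 1 and 229 CPM in replicate 2, which is 2.20% and 1.18% of their level in the astrocytes, and none of the 10 was at 0. Slc1a2 was found in 35.1% and 50.7% of oligodendrocytes, but the summed level was uneven. The oligodendrocyte at the 99th percentile held 5432 CPM of these markers in replicate 1 and 1664 CPM in replicate 2. The 7 endothelial markers came to 0.0427% and 0.0137% of the endothelial level, with 1 and 2 of them at 0. The precursor markers came to 85.6 and 57.6 CPM, or 1.37% and 0.755% of the precursor level, although Matn4, 1 of them, was found in 45.1% and 49.7% of oligodendrocytes. Mural markers came to 20.02 and 6.04 CPM, microglial markers to 3.22 and 2.09 CPM, ependymal markers to 13.4 and 17.7 CPM and blood markers to 6.26 and 2.79 CPM. Neuronal markers came to 105 and 111 CPM, with Tubb3, a neuronal tubulin, in 41.9% and 52.4% of oligodendrocytes. Tubb3 also differed among the oligodendrocytes in the Il33 comparison below, and whether its RNA came from neurons was not tested. The classes compared with them held RNA of other cells too. In the endothelial cells mural markers came to 6623 and 9559 CPM and blood markers to 39870 and 33556 CPM. Their endothelial markers came to 10476 and 11868 CPM. In the astrocytes ependymal markers came to 915 and 209 CPM and microglial markers to 218 and 8.78 CPM. The part of all these levels in the comparisons below was not tested.

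To find what set the oligodendrocytes apart in genes that the rule did not use, their counts were summed per library and compared with the sums of 275 and 248 astrocytes and of 54 and 40 endothelial cells of the same libraries, with the library as a block in edgeR's quasi-likelihood test. A gene is called where its Benjamini-Hochberg adjusted p over all 11780 genes tested was at most 0.05 and it differed at least 2-fold. All classes were drawn from marker genes in the same cells, so the tests describe how far they differ and are not independent evidence that they are distinct. Levels are given below in CPM as oligodendrocytes of replicate 1 and 2, and fold changes on the log2 scale with their standard error. The scaling of the libraries moved the fold changes against endothelial cells: the median over all genes was 0.11 with the factors used here and −0.12 with library totals alone.

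Against astrocytes, 2008 genes were higher in oligodendrocytes, 17.0% of those tested, and 3073 were lower, 26.1%, together 43.1%. Against endothelial cells, 2305 were higher, 19.6%, and 2208 lower, 18.7%, together 38.3%. In both comparisons, 1174 genes, 9.97%, were higher and 1162, 9.86%, lower, together 19.8%. Called genes were common, so a list is read below against these shares and against the median of all genes, −0.05 in the comparison with astrocytes.

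**Figure D1:**
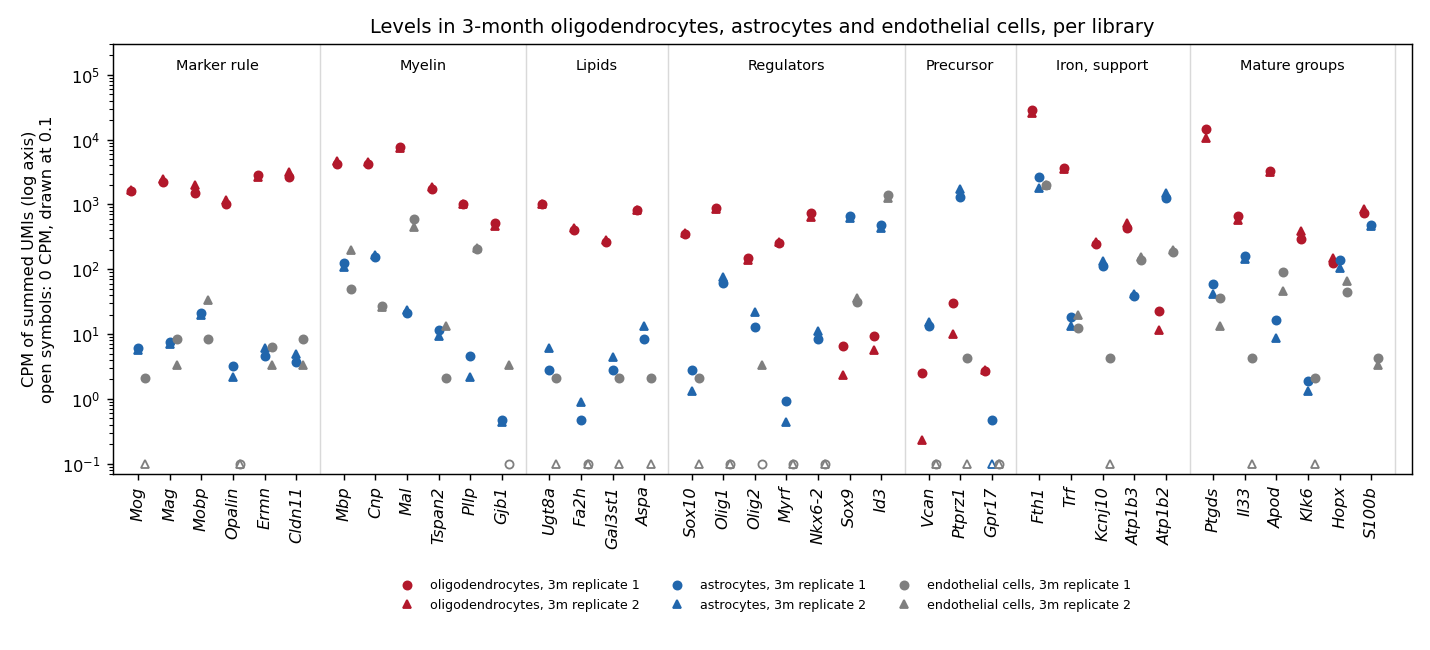
Level of each gene in CPM (log axis) in the summed oligodendrocytes, astrocytes and endothelial cells of each 3m library (circles, replicate 1; triangles, replicate 2; open symbols stand for 0 CPM and are drawn at 0.1). The symbols of the 2 libraries lie close together for the abundant genes of oligodendrocytes, with Mal at 7789 and 7392 CPM, while Sox9, Vcan and Atp1b2 lie below their astrocyte level.

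The structural proteins of myelin were the most uniform group. All 15 tested were higher than in astrocytes and all 15 higher than in endothelial cells, with a median log2 fold change of 7.70 and 7.64 (7.58 with genes absent from endothelial cells at their lower bound). Mbp, myelin basic protein, stood at 4249 and 4719 CPM against 124 and 109 CPM in astrocytes, a difference of 5.22 ± 0.24, and every oligodendrocyte library lay far above the others. Cnp, the myelin phosphodiesterase of the cytoplasmic channels, stood at 4196 and 4558 CPM against 152 and 165 CPM, a difference of 4.76 ± 0.20.

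Several of these proteins were shared with endothelial cells to a degree. Mal, a protein of membrane rafts, stood at 7789 and 7392 CPM in oligodendrocytes, at 20.9 and 23.3 CPM in astrocytes and at 592 and 451 CPM in endothelial cells, so that its difference was 8.39 ± 0.24 against the first and 4.11 ± 0.20 against the second. Pllp, plasmolipin, stood at 1024 and 1032 CPM against 208 and 212 CPM in endothelial cells. Ndrg1, a protein whose loss causes a demyelinating neuropathy, stood at 801 and 941 CPM against 445 and 520 CPM in endothelial cells, a difference of 1.11 ± 0.17, whereas it was 7.87 higher than in astrocytes on the log2 scale. The call against endothelial cells was lost without the scaling factors. The nearest neighbour in astrocytes was Cmtm5, at 1201 and 1218 CPM against 512 and 521 CPM, a difference of 1.20 ± 0.16.

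Gjb1, connexin 32, which forms gap junctions of oligodendrocytes, stood at 523 and 473 CPM against 0.464 and 0.439 CPM in astrocytes and 0 and 3.31 CPM in endothelial cells. It was higher by 9.93 ± 0.32 and 8.79 ± 0.42.

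Enzymes of the myelin lipids were mostly higher. Of 15 tested, 11 were higher and 1 lower than in astrocytes, and 14 were higher and 1 lower than in endothelial cells, with medians of 2.83 and 4.35. Ugt8a, which makes galactosylceramide, stood at 1014 and 1017 CPM against 2.78 and 6.14 CPM in astrocytes, a difference of 7.78 ± 0.26. Fa2h, which hydroxylates the fatty acids of myelin lipids, stood at 401 and 428 CPM against 0.464 and 0.878 CPM in astrocytes (9.13 ± 0.30) and was absent from both endothelial libraries, where it was at least 107-fold lower, taking 3 counts over the group as the limit of a count of 0. Bounds of this kind are used below wherever a class held no UMI. Gal3st1, the sulphatide-forming transferase, was higher by 6.22 on the log2 scale than in astrocytes, and Aspa, which releases acetate from N-acetylaspartate, by 6.20. Scd2, a desaturase, stood at 2843 and 3172 CPM against 986 and 1021 CPM in astrocytes, a smaller difference of 1.56.

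The exceptions lay in fatty acid elongation and sphingosine phosphate turnover. Elovl5, an elongase of polyunsaturated fatty acids, stood at 138 and 140 CPM against 271 and 334 CPM in astrocytes, a difference of −1.14 ± 0.14, yet it was 1.74 higher than in endothelial cells. Sgpp2, a sphingosine phosphatase, was absent from the oligodendrocytes of both libraries and stood at 60.9 and 86.1 CPM in endothelial cells, at least 233-fold higher there.

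Sterol synthesis gave opposite results against the 2 other classes. Of 17 genes, none was higher and 9 were lower than in astrocytes, with a median of −1.06, whereas 14 were higher and none lower than in endothelial cells, with a median of 2.04 (1.83 with bounds). Hmgcs1, the synthase that opens the pathway, stood at 161 and 190 CPM in oligodendrocytes, 221 and 286 CPM in astrocytes and 39.9 and 33.1 CPM in endothelial cells. The oligodendrocytes lay between the other classes in both libraries, with a difference from astrocytes of −0.55 ± 0.14 that was too small to be called and a rise of 2.46 ± 0.25 over endothelial cells. Insig1, which holds the pathway back when sterols are plentiful, stood at 77.4 and 85.3 CPM against 174 and 160 CPM in astrocytes, lower by 1.06 on the log2 scale, and was 2.33 higher than in endothelial cells. Mvd, Fdft1, Sqle, Msmo1 and Nsdhl, enzymes of the pathway, were also among the genes lower than in astrocytes.

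Most transcription factors on the lineage list were higher in oligodendrocytes. Of 16 of 17 listed factors that could be tested, 11 were higher and 5 lower than in astrocytes, with a median of 3.06, and 13 were higher and 2 lower than in endothelial cells, where 8 had to be taken at a bound and the median was then 5.58. Sox10 (15:79154908-79165240 in mm10) stood at 352 and 365 CPM against 2.78 and 1.32 CPM in astrocytes, a difference of 7.40 ± 0.26. Myrf (19:10208272-10240748), which drives the myelin genes, stood at 251 and 265 CPM and was higher by 8.45 ± 0.30, and at least 66.6-fold higher than in endothelial cells. Olig1 and Olig2 were also present in astrocytes: Olig1 stood at 870 and 857 CPM against 60.8 and 74.6 CPM, a difference of 3.65 ± 0.18, and Olig2 was higher by 3.03. Nkx6-2, St18 and Zfp536, regulators of later steps, were higher than in astrocytes by 6.09, 7.31 and 8.22.

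The factors lower than in astrocytes were Sox9, Hes5, Id3, Sox2 and Tcf7l2. Sox9, which specifies glia and stays on in astrocytes, stood at 6.43 and 2.32 CPM in oligodendrocytes and at 665 and 627 CPM in astrocytes, a difference of −7.17 ± 0.23. Id3, an inhibitor of differentiation, stood at 9.29 and 5.58 CPM against 482 and 429 CPM in astrocytes and 1417 and 1242 CPM in endothelial cells. Hes5, a Notch effector, stood at 6.61 and 2.09 CPM against 380 and 461 CPM in astrocytes. Tcf7l2, a Wnt effector of newly formed oligodendrocytes, stood at 39.9 and 31.4 CPM against 163 and 175 CPM, a difference of −2.27.

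Genes of precursors and of the premyelinating stage were mixed. Of 14 tested of 19 in the table, 4 were higher than in astrocytes (Enpp6, Nkx2-2, Bcas1 and Lims2) and 7 lower, with a median of −1.09. Against endothelial cells 4 were higher and 5 lower, with a median of 1.87 that became −0.98 with absent genes at their bound, so it has no stable sign. Enpp6, a choline phosphodiesterase of newly formed oligodendrocytes, stood at 198 and 234 CPM with 0 and 0.878 CPM in astrocytes. Bcas1, another early marker, stood at 270 and 291 CPM, higher by 4.67. Itpr2, a calcium channel of newly formed cells, stood at 24.3 and 26.5 CPM, lower by 2.04 on the log2 scale than in astrocytes, and the chondroitin sulphate proteoglycan gene Vcan at 2.50 and 0.232 CPM.

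Precursors themselves numbered 43 in replicate 1 and only 6 in replicate 2, under the 10 cells a class needed per library, so they were compared in a fit added after the data were seen. In it 1716 of 11518 genes, 14.9%, were higher in oligodendrocytes and 1866, 16.2%, lower, together 31.1%, with a median over all genes of 0.08. This comparison moved with the scaling of the libraries. With library totals alone the median over all genes was −0.56, with 870 genes called higher and 3053 lower, so small differences from precursors are given on both scales. Of the 17 precursor and early genes tested there, 2 were higher and 11 lower, with a median of −3.00 (1 and 11 on library totals, with a median of −3.70). Vcan stood at 1250 and 1255 CPM in precursors, a difference of −8.90 ± 0.26, and Ptprz1, a receptor phosphatase, at 4307 and 5608 CPM against 29.7 and 9.99 CPM in oligodendrocytes. Gpr17, the receptor of committed precursors, stood at 2.68 and 2.79 CPM in oligodendrocytes and at 647 and 640 CPM in precursors. Enpp6 was absent from precursors of both libraries. Bcas1 stood at 179 and 205 CPM in precursors, a difference of 1.34 ± 0.24 that was called and of 0.65 ± 0.24 on library totals that was not.

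Lineage regulators divided in this comparison. Olig1 stood at 3597 and 3841 CPM in precursors and was lower in oligodendrocytes by 1.35 on the log2 scale, and by 2.12 on library totals, and Olig2 stood at 1050 and 973 CPM, against 151 and 138 CPM. Sox10 stood at 516 and 563 CPM in precursors, above its 352 and 365 CPM in oligodendrocytes. Its difference was 0.14 ± 0.20 with the scaling factors and −0.57 ± 0.20 on library totals, so its direction turned with the scaling, and it was called on neither scale. Of the 15 myelin proteins 13 were higher (12 on library totals), and those not called included Pllp, at 837 and 973 CPM in precursors, and Gjc3, connexin 29, at 520 and 871 CPM. Sterol synthesis, lower than in astrocytes, was here higher in 8 of 17 genes (7 on library totals) and lower in none.

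**Figure D2:**
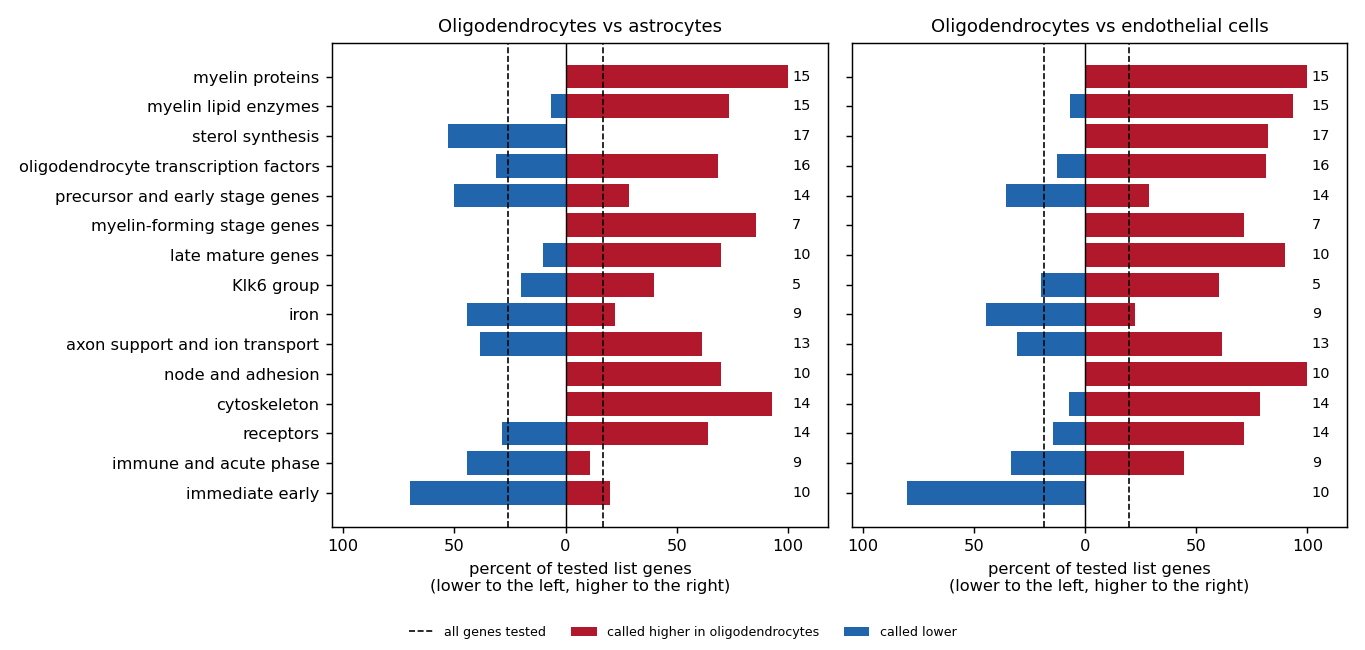
Percent of the tested genes of each list that were called higher (bars to the right) or lower (bars to the left) in oligodendrocytes than in astrocytes and than in endothelial cells; dashed lines are the shares over all genes tested, and the number at the right is how many genes of the list were tested. Myelin proteins fill the right side in both comparisons, and sterol synthesis lies on the left against astrocytes and on the right against endothelial cells.

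Genes of the myelin-forming stage were higher in 6 of 7 against astrocytes and in 5 of 7 against endothelial cells, and late mature genes were higher in 7 of 10 (1 lower) and 9 of 10. The medians were 6.42 and 4.05 (3.70 with bounds) for the first list and 4.29 and 6.33 (5.30 with bounds) for the second. Ptgds (2:25466709-25470046), which makes prostaglandin D, stood at 14716 and 10452 CPM against 59.4 and 41.2 CPM in astrocytes and 35.7 and 13.3 CPM in endothelial cells, higher by 7.94 ± 0.23 and 9.19 ± 0.28. Apod, a lipid-carrying lipocalin, stood at 3301 and 3199 CPM, higher by 8.02 than in astrocytes, and Car2, the carbonic anhydrase of oligodendrocytes, at 5030 and 4910 CPM against 426 and 419 CPM, higher by 3.53. Il33 (19:29925114-29960718), a nuclear alarmin, stood at 652 and 571 CPM against 160 and 143 CPM in astrocytes, higher by 1.99 ± 0.16, and was near absent from endothelial cells at 4.20 and 0 CPM. The late gene Grm3, a glutamate receptor, was the one lower than in astrocytes, at 117 and 123 CPM against 322 and 421 CPM.

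Klk6 and its companions, genes of another mature state, were present as well. Of the 5 genes, 2 were higher and 1 lower than in astrocytes, with a median of 0.17, and 3 were higher and 1 lower than in endothelial cells, with a median of 1.05. Klk6 (7:43824499-43832030), a secreted serine protease, stood at 294 and 382 CPM against 1.86 and 1.32 CPM in astrocytes, higher by 7.67 ± 0.27, and was found in 29.3% and 32.2% of oligodendrocytes. Hopx, a homeodomain cofactor, stood at 125 and 151 CPM against 137 and 104 CPM in astrocytes, a difference of 0.17 that did not pass (edgeR, adjusted p = 0.31). The calcium-binding protein gene S100b, commonly used to mark astrocytes, stood at 745 and 857 CPM in oligodendrocytes and 475 and 461 CPM in astrocytes, a difference of 0.75 that was under 2-fold.

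Iron genes were mixed. Of 9, 2 were higher (Fth1 and Trf) and 4 lower in each comparison, with medians of −0.56 and −2.87. Fth1 (19:9980598-9985098), the ferritin heavy chain, stood at 28811 and 25684 CPM against 2658 and 1786 CPM in astrocytes and 2026 and 1961 CPM in endothelial cells, higher by 3.61 ± 0.18 and 4.02, and at only 544 and 563 CPM in precursors. Trf, transferrin, stood at 3650 and 3489 CPM against 18.1 and 13.2 CPM in astrocytes, higher by 7.81 ± 0.24. Ftl1, the ferritin light chain, at 1020 and 1022 CPM, differed from the astrocytes by 0.89 and was not called. The receptor for transferrin Tfrc stood at 25.2 and 33.9 CPM against 273 and 229 CPM in endothelial cells, and the exporter Slc40a1, ferroportin, at 0.179 and 0.465 CPM against 330 and 381 CPM there, a difference of −9.71.

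Genes of metabolic and ionic support to axons were higher than in astrocytes in 8 of 13 and lower in 5, with a median of 1.04, and against endothelial cells 8 were higher and 4 lower, with a median of 1.93. Slc16a1, the monocarboxylate transporter MCT1, stood at 81.7 and 90.1 CPM against 43.2 and 39.0 CPM in astrocytes and 361 and 434 CPM in endothelial cells, so that it was higher by 1.04 ± 0.16 than the first and lower by 1.95 on the log2 scale than the second. Kcnj10, the potassium channel Kir4.1, stood at 249 and 263 CPM against 114 and 133 CPM in astrocytes, higher by 1.03 ± 0.14. Both of these calls lay at the 2-fold limit, and with DESeq2 the differences were 0.97 and 0.96 and were not called. Slc12a2, a chloride cotransporter, was higher by 5.56. Kcna1, a potassium channel subunit usually described at the juxtaparanode of axons, of the same list, stood at 512 and 585 CPM, higher by 7.50 than in astrocytes and at least 141-fold higher than in endothelial cells.

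Subunits of the sodium pump and of lactate dehydrogenase differed from those of astrocytes. Atp1b2, the beta subunit that ACSA2 recognises, was lower by 6.32 on the log2 scale. Atp1b3 instead stood at 436 and 518 CPM against 39.0 and 41.2 CPM in astrocytes, higher by 3.54. Atp1b1 stood at 7.69 and 0.232 CPM against 571 and 598 CPM. Ldhb stood at 186 and 184 CPM against 1396 and 1404 CPM in astrocytes, lower by 2.94 on the log2 scale, and Ldha at 20.9 and 15.3 CPM.

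Proteins of the axon-glia junction were higher than in astrocytes in 7 of 10 and than in endothelial cells in 10 of 10, with medians of 4.07 and 9.36 (4.83 with bounds). Cntn2, a contactin of the juxtaparanode, stood at 341 and 413 CPM, higher by 6.58, and Nfasc, neurofascin, at 241 and 235 CPM, higher by 2.66. Cadm4, the adhesion molecule of the internode, stood at 287 and 260 CPM and differed from astrocytes by only 0.66, which was not called. Cytoskeletal genes were higher in 13 of 14 against astrocytes and in 11 of 14 against endothelial cells, with medians of 3.91 and 4.68. Higher than in astrocytes were Stmn1 at 4397 and 3857 CPM (5.85), Stmn4 at 1574 and 1610 CPM (7.94), Anln at 686 and 777 CPM (7.62) and the tubulin polymerisation gene Tppp at 387 and 414 CPM (6.50). Arpc1b, of the actin branching complex, was the one gene of this list called lower than in endothelial cells, at 109 and 102 CPM against 384 and 484 CPM.

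Receptors of the lineage were higher in 9 of 14 against astrocytes and lower in 4, with a median of 2.36. Against endothelial cells 10 were higher and 2 lower, with a median of 6.86 (3.83 with bounds). Lpar1, a lysophosphatidic acid receptor, stood at 496 and 552 CPM, higher by 5.53 than in astrocytes, and Gpr37, an orphan receptor that restrains myelination, at 550 and 646 CPM, 8.05 higher than in endothelial cells. S1pr5, a sphingosine phosphate receptor, at 140 and 158 CPM, and Erbb3, a neuregulin receptor, at 79.0 and 73.2 CPM, were higher than in astrocytes by 7.66 and 7.22.

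Immune and acute phase genes were mixed. Of 9, 1 was higher and 4 lower than in astrocytes, with a median of −1.17, and 4 were higher and 3 lower than in endothelial cells, with a median of 1.12 (0.47 with bounds). B2m, the light chain of class I major histocompatibility molecules, stood at 8.22 and 5.58 CPM against 426 and 818 CPM in endothelial cells, and H2-D1, a heavy chain, at 20.02 and 11.2 CPM against 619 and 666 CPM. The complement gene C4b stood at 21.3 and 29.5 CPM. Immediate early genes, which dissociation can induce, were lower than in astrocytes in 7 of 10 and than in endothelial cells in 8 of 10, with medians of −2.29 and −4.29. Fos stood at 0.536 and 0.697 CPM in oligodendrocytes, at 40.8 and 6.58 CPM in astrocytes and at 202 and 23.2 CPM in endothelial cells. Its level in oligodendrocytes rested on 3 UMIs in each library. In the precursors Fos stood at 482 and 1255 CPM. Jund, at 1103 and 978 CPM against 266 and 163 CPM in astrocytes, was higher by 2.30.

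The 10 genes outside the rule with the greatest smallest difference from both other classes, at 50 CPM or more in both libraries, were A230001M10Rik, Galnt6, Fa2h, Gjb1, Enpp6, Cyp2j12, Edil3, Myrf, Smco3 and Zfp536. A230001M10Rik, a noncoding transcript, stood at 86.9 and 69.5 CPM in oligodendrocytes and held no UMI in astrocytes or endothelial cells, at least 117-fold and 20.6-fold higher, though DESeq2 did not call it. Galnt6, which starts mucin-type glycans, stood at 199 and 207 CPM, with 0.464 and 0 CPM in astrocytes, higher by 9.51 ± 0.36 and at least 52.5-fold higher than in endothelial cells. Edil3, an integrin-binding matrix protein gene, stood at 793 and 883 CPM and was higher by 8.48 ± 0.28 and 8.55 ± 0.38. Cyp2j12, a cytochrome P450, stood at 124 and 113 CPM and Smco3, a membrane protein gene, at 165 and 149 CPM.

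The 5 genes furthest below both classes held no UMI in any oligodendrocyte. Fzd6, a Wnt receptor, stood at 15.8 and 13.6 CPM in astrocytes and 147 and 152 CPM in endothelial cells, at least 48.4-fold and 492-fold higher. Msx1, a homeobox gene, stood at 22.3 and 19.3 CPM in astrocytes and 31.5 and 13.3 CPM in endothelial cells, at least 68.5-fold and 80.6-fold higher. The interferon-induced gene Ifit3 and Kctd12b were at least 40.2-fold and 44.7-fold higher in astrocytes. Gm9780 was also among them, but its astrocyte level of 22.3 and 0.878 CPM and its endothelial level of 27.3 and 0 CPM rest on replicate 1.

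The oligodendrocytes differed among themselves in a small number of genes. To compare cells at equal depth, each was thinned to 4000 UMIs, which left 534 cells of replicate 1 and 288 of replicate 2, with 25 and 4 shallower cells left out. Over 1265 genes with a mean of at least 0.5 UMI per cell, the Fano factor (variance over mean, 1 for counting noise alone) had a median of 1.10 in replicate 1 and 1.11 in replicate 2. Gm42418 was the most uneven, at 228 and 157, and Malat1 stood at 51.7 and 45.4. Ptgds lay between them, far above the median, at 58.8 and 52.1. It had a median of 57 UMIs in replicate 1 and 34.5 in replicate 2, with 0 UMIs at the 10th percentile of both libraries and 149 and 113.6 UMIs at the 90th. Klk6 (5.97 and 6.56) and S100b (8.11 and 7.88) stood out as well, while Mbp stood at 2.19 and 3.72 and Cnp at 1.87 and 2.05. Cst3 stood at 48.6 in replicate 1 and at 4.40 in replicate 2.

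Il33 was used to divide the oligodendrocytes, since it is a late gene found in many but not all of them. It was detected in 390 and not in 144 thinned cells of replicate 1 (73.0% detected), and in 190 and not in 98 of replicate 2. Before thinning the cells without Il33 were the deeper ones, with medians of 12208.5 against 8599 UMIs and 17012 against 11860.5 UMIs. Counts were summed per side and library and compared in edgeR with the library as a block. Of 6765 genes, without Il33 and the marker genes of the class rules, 42 (0.621%) were higher and 74 (1.09%) lower on the Il33 side, together 1.71%, and 1079 had an unadjusted p under 0.05. The number of calls moved with the random draw of UMIs, from 68 to 143 in 4 other draws chosen after the data were seen. In all 5 draws 44 genes, 12 higher and 32 lower, were called the same way. Over all alternatives tried, the number of calls ran from 39 to 383.

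Klk6 and its companions stood on the side without Il33. Klk6 had a mean of 0.149 UMI per cell with Il33 and 2.96 without in replicate 1, and of 0.0737 and 2.81 in replicate 2. It was found in 6.92% against 63.2% of cells in replicate 1 and in 4.74% against 58.2% in replicate 2, and the difference was −4.53 ± 0.15 (edgeR, adjusted p = 3.64e-09). Hopx had means of 0.0692 against 1.18 and of 0.0158 against 1.22, a difference of −4.50 ± 0.25. S100b, with means of 0.700 against 7.54 and of 0.574 against 6.19, differed by −3.40 ± 0.07 and was found in 28.7% against 88.9% and in 27.4% against 77.6% of cells. Anxa5, an annexin (−2.52 ± 0.20), and Mgst3, a microsomal glutathione transferase (−2.20 ± 0.19), also fell, so 4 of 5 genes of the Klk6 group were lower, the other being S100a1 at −0.00.

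**Figure D3:**
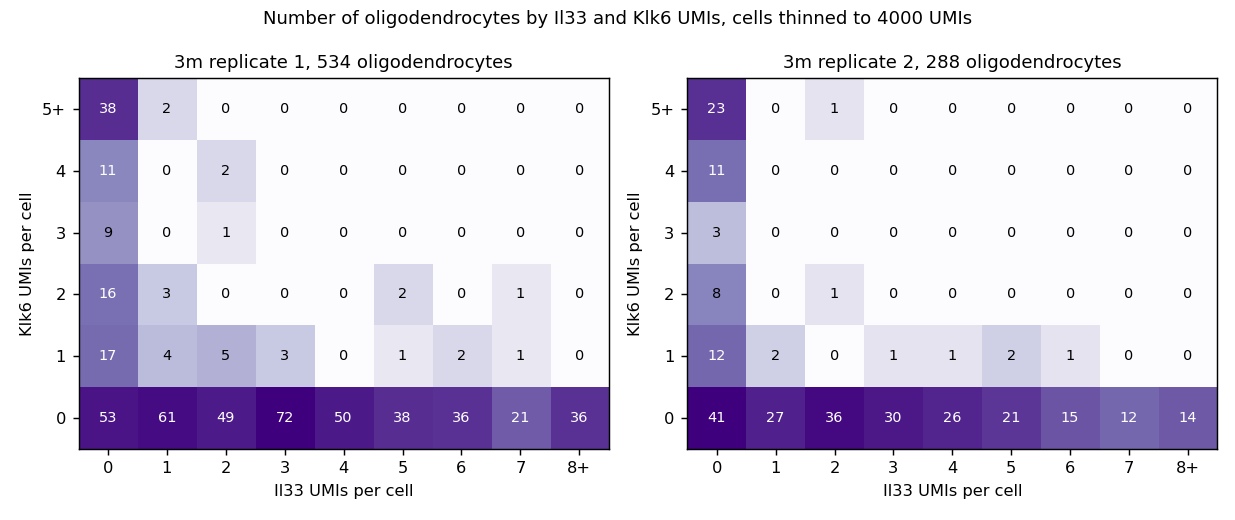
Number of oligodendrocytes by their UMIs of Il33 (horizontal axis) and of Klk6 (vertical axis), each cell thinned to 4000 UMIs, in 3m replicate 1 (534 cells) and 3m replicate 2 (288 cells). Cells lie along the axes in both libraries: of the cells with 5 or more Klk6 UMIs, 38 had no Il33 UMI and 2 had 1 in replicate 1, and 23 had none and 1 had 2 in replicate 2.

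The other genes furthest down were Nkx2-9 and Uchl1. Nkx2-9, a homeobox gene, had means of 0.0231 against 0.438 UMI per cell in replicate 1 and of 0.0105 against 0.551 in replicate 2, a difference of −4.58 ± 0.32. Uchl1, a ubiquitin hydrolase better known from neurons, had means of 0.0282 against 0.451 and of 0.0211 against 0.398, a difference of −4.01 ± 0.28. Ldhb fell by 1.62 on the log2 scale. Enpp6, the early gene, fell by 1.43, with means of 0.510 against 1.24 and of 0.474 against 1.59 UMI per cell. Anln fell by 1.07, a call that did not recur in all of the draws. The tubulin genes Tubb2a and Tubb3, picked out after their values were seen, were called lower in all 5 draws, whereas Tubb4a was not called. Tubb2a had means of 0.0538 against 0.285 and of 0.0316 against 0.204, and Tubb3 of 0.221 against 0.667 and of 0.268 against 0.510.

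Ptgds stood on the side with Il33. It had a mean of 87.9 UMIs per cell with Il33 and 12.01 without in replicate 1, and of 63.0 and 15.6 in replicate 2, a difference of 2.48 ± 0.14 (edgeR, adjusted p = 6.13e-07). It was found in 98.2% against 61.8% and in 98.4% against 50% of cells. The tetraspanin genes Cd9 (means of 2.87 against 1.04 and of 2.78 against 1.30, a difference of 1.34 ± 0.09) and Cd63 (1.57 against 0.667 and 1.52 against 0.571, a difference of 1.33 ± 0.11) were higher too. Wfdc18, a gene of the myelin-forming list, was higher by 1.53 ± 0.27. The 5 genes with the greatest rise were Rasal1 (4.02 ± 0.92), Gm42756 (3.62 ± 0.52), Lrp4 (3.26 ± 0.72), Rhoj (3.00 ± 0.77) and Gm48678 (2.72 ± 0.33), of which only the predicted genes Gm42756 and Gm48678 were called in all 5 draws. Apoe, the lipid carrier, named after its values were seen, had means of 10.3 against 4.72 and of 10.4 against 4.19.

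Few listed genes were called in the Il33 comparison, as few were over all genes (1.71%). None of 15 myelin proteins, 14 lipid enzymes, 14 sterol genes, 13 transcription factors, 11 receptors, 10 junction genes and 4 iron genes was called in this edgeR fit. Mbp differed by −0.10 and Cnp by 0.14, and the regulators Sox10 and Myrf by 0.06 and 0.17. Tspan2 (0.73), Apod (−0.91), Selenop (−0.81) and Qdpr (0.79) came closer to 2-fold and were not called. Opalin, a rule gene given as a description, had means of 5.29 against 1.88 UMIs in replicate 1 and of 6.29 against 2.52 in replicate 2.

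**Figure D4:**
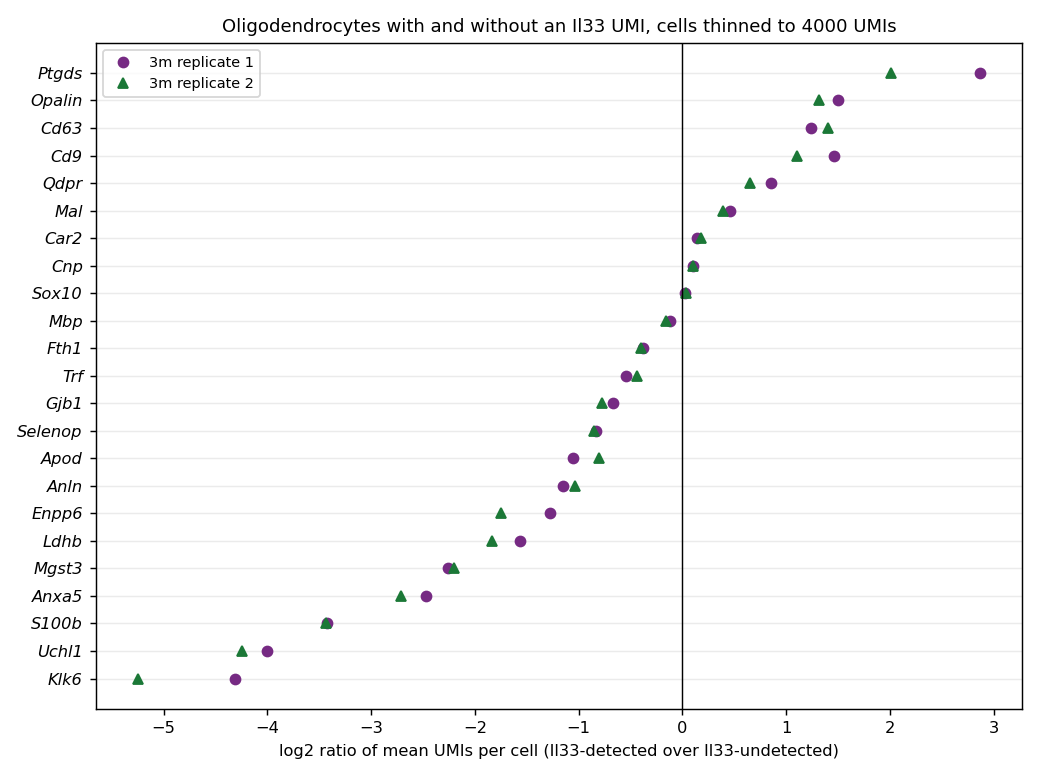
Log2 ratio of the mean UMIs per cell in oligodendrocytes with Il33 over those without, for each gene and each 3m library (circles, replicate 1; triangles, replicate 2), in cells thinned to 4000 UMIs. Klk6, Uchl1, S100b, Anxa5 and Mgst3 lie left of 0 in both libraries, Ptgds, Cd9 and Cd63 right of it, and Mbp and Cnp close to it.

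Seen from Klk6, in a division chosen after the values were seen and given without a test, 118 of 534 thinned cells (22.1%) of replicate 1 and 66 of 288 (22.9%) of replicate 2 held the gene. These cells were also the deeper ones before thinning, at medians of 12550.5 against 8701 and 17714.5 against 12109.5 UMIs. Il33 was found in 22.9% of them against 87.3% of the rest in replicate 1, and in 13.6% against 81.5% in replicate 2. Opalin was found in 47.5% against 95.9% and in 50% against 95.05%. Ptgds had a mean of 6.74 against 84.6 UMIs and of 4.59 against 59.4 UMIs, and Apod, in the opposite direction, of 21.8 against 10.0 and of 19.3 against 9.44. Both Klk6 and Il33 were detected in 27 and 9 cells, Klk6 alone in 91 and 57, Il33 alone in 363 and 181 and neither in 53 and 41. Over the thinned cells of each library Klk6 and Il33 had a Spearman rho of −0.527 in both, and Ptgds and Il33 of 0.640 and 0.607, within libraries and at equal depth.

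The direction that took most variance was less stable between libraries than these genes. In a principal component analysis of 1000 variable genes per library, the first component took 4.35% of the variance in replicate 1 and 5.30% in replicate 2, and of the 20 genes at its Klk6 end the libraries shared 2, Fth1 and Ubb, and of the 20 at the other end 5. Klk6 ranked 7th at its end in replicate 1 and 515th in replicate 2. The second component, examined after these values were seen, took 4.07% and 4.57% and shared 11 of 20 genes at the Klk6 end, among them Klk6, S100b, Enpp6, Anln, Apod and Selenop, and 14 of 20 at the other end, among them Ptgds, Il33, Opalin, Cd9, Cd63, Apoe and Qdpr. With 6000 UMIs per cell, in 482 and 282 cells, the first component shared 16 and 15 of 20.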

How the data were processed

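The authors made the deposited table of raw UMI counts per gene and cell, in which no column was left unused. The submitters' processing notes name Cell Ranger, Seurat 3.1.1 and mm10. The 12 runs belonged to 4 libraries. Cells, classes and lists were chosen with earlier results of these data known. The smaller member of a barcode shared by postnatal replicate 2 and 3m replicate 2 was left out. Doublets were kept: Scrublet scores marked 7 and 1 oligodendrocytes, left out in an alternative. Other classes needed at least 3 of their own genes and at most 1 oligodendrocyte gene. Counts summed per class and library were tested with edgeR 4.0.16 (R 4.3.3; TMM, filterByExpr, quasi-likelihood, library as block, since classes came from the same suspension), checked on simulated data, with DESeq2 1.42.0 as an alternative. The sums held 5595263 and 4304275 UMIs in oligodendrocytes. Cells were thinned at random without replacement. Text names the rule genes, list members, the 10 highest and 5 lowest genes against both classes and 5 at each end of the Il33 comparison. Of the list and marker genes, 272 were in the table, 2 were not (Cemip2 and Sepp1), and 271 had 1 GENCODE M21 locus. Some genes of the lists count in the totals and are not reported here by name.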

Additional observations from a re-analysis of the deposited data

Results flagged for a closer look

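Among barcodes below the cell filters, 4 of postnatal replicate 2 met the oligodendrocyte marker rule, whereas no filtered postnatal cell did. This was a signal in barcodes that entered no comparison. All 4 were the smaller members of barcodes shared with 3m replicate 2, with a median of 420.0 detected genes. Postnatal replicate 1 had none among 96 such barcodes, and in the 3m libraries 34 of 329 and 67 of 594 met the rule.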

How the results depend on the processing

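The mean share of oligodendrocytes in the 3m libraries, less that in the postnatal ones, lay between 40.6 and 49.9 percentage points with a library left out, and at 38.9 with none of the 6 genes of other cells allowed. Single 3m libraries reached from 34.4% under that rule to 53.0% with the rule on thinned counts. With one library left out no residual degrees of freedom remained, so the counts of called genes could not be tested that way. Of the log2 ratios of named genes computed so, without a test, 19 against astrocytes, 46 against endothelial cells and 19 in the Il33 comparison moved by at least the SD between the libraries, while 106, 30 and 28 moved by less. Calls ranged from 4740 to 7450 against astrocytes and from 4145 to 5542 against endothelial cells over the alternatives tried. With the adjusted p alone, 3502 genes were higher than in astrocytes and 1809 higher than in both classes. With precursors in the fit, chosen after the data were seen, 1335 genes were called against every class, 753 higher and 582 lower. Without the replicate block the counts were 5108 against astrocytes, 4526 against endothelial cells, 2358 in both and 127 in the Il33 comparison. Without the TMM factor the share of calls that were higher than in endothelial cells fell from 51.1% to 42.3%.

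The Il33 comparison had 116 calls. It gave 39 calls with DESeq2 (9 higher, 30 lower), 188 with no filter on low counts (75 and 113), 203 at 6000 UMIs (83 and 120), 383 with no thinning (171 and 212) and 68 in the fifth draw (20 and 48). The cause was not tested. The first component shared 16 and 15 of 20 genes at 6000 UMIs, and the second component 11 and 14, against 2 and 5. Among named genes, Mgst3 turned to −0.081 against endothelial cells without the TMM factor, and S100a1 to 0.015 in the Il33 comparison with no low-count filter, neither a called value. Of the values refitted, 11 of those against astrocytes, 17 against endothelial cells and 7 in the Il33 comparison kept their direction and lost their call, among them Hes5 against endothelial cells in 9 alternatives. The precursor comparison gave 3923 calls on library totals, a setting added after the data were seen, with 870 higher and 3053 lower against 1716 and 1866, and the share of calls that were higher was 22.2%. Its other alternatives were not run. Rare genes and the 40 to 54 endothelial cells per library limit the depth of these results.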
